A study of Mus musculus with 6 samples.

Results

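Alternative activation is the state that macrophages take on under interleukin 4 (IL-4), and 10 genes that serve as its usual components and readouts in the mouse were followed by their gene symbols: Il4ra, Stat6, Mrc1, Clec10a, Mgl2, Pdcd1lg2, Arg1, Retnla, Chil3 and Ccl24. Of these 10 genes, 7 had a row among the 16836 genes of the deposited table, and all 7 passed the filter on low values that left 12118 genes for testing. Retnla, Pdcd1lg2 and Ccl24 were not analysed here. RNA from bone marrow-derived macrophages, cells grown out in culture from marrow precursors, was sequenced for 3 KO libraries, from mice without Ube3a (given in the labels as Ube3a-/-), and for 3 WT libraries, from their wild-type littermates. Ube3a encodes an E3 ubiquitin ligase. The labels name no IL-4 or other stimulus for either genotype, and they do not describe the knockout allele, the strain, the age or the sex of the mice. Whether the libraries stand for separate animals is not stated either, and the p-values therefore measure the spread between these libraries, which may be technical in part.

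IL-4 and the related IL-13 bind a receptor built around the IL-4 receptor alpha chain, and Janus kinases on that receptor phosphorylate the transcription factor STAT6. STAT6 dimers enter the nucleus and bind palindromic sites near their target genes, with a preference for half-sites that are set apart by 4 bases. Among the targets in mouse macrophages are surface lectins, the enzyme arginase 1 and secreted proteins such as the resistin-like and chitinase-like ones, and these mark macrophages in helminth infection, allergy and tissue repair.

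The 250 bases before the RefSeq transcription start are shown for 3 measured genes, because the palindrome is the sequence at which the receptor signal meets its targets and because these 3 genes stand for the signal, the surface and the secreted members. Sequences are from RefSeq on GRCm38.p6 and run 5′ to 3′ on the strand of the gene. Capitals mark a match to TTCNNNNGAA, the STAT6 type of spacing, or to TTCNNNGAA, the spacing that STAT proteins in general accept. Il4ra lies at chr7:125552021-125552270 on the plus strand, Mrc1 at chr2:14229164-14229413 on the plus strand and Chil3 at chr3:106167565-106167814 on the minus strand. The gene positions given further on are from GENCODE, which starts some genes earlier than RefSeq does: the last 151 bases of the Il4ra window and the last 22 of the Mrc1 window lie inside the GENCODE gene, and none of the Chil3 window does.
Il4ra: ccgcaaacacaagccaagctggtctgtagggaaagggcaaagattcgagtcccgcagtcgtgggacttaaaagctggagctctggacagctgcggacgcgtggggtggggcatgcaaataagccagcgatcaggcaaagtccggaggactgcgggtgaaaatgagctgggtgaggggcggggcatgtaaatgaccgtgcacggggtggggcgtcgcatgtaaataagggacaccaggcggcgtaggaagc
Mrc1: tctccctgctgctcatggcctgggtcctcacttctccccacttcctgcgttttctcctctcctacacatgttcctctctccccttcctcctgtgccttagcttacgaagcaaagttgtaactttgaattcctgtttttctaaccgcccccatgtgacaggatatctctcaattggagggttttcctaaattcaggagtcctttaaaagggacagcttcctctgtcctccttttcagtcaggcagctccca
Chil3: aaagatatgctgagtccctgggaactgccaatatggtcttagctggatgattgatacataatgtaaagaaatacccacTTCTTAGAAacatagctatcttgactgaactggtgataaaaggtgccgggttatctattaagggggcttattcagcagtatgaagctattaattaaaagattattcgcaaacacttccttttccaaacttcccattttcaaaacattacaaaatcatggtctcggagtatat
The Chil3 window held 1 match, TTCTTAGAA, which begins 172 bases before the start, and the windows of Il4ra and Mrc1 held none. Windows were also found for Mgl2 and Stat6, with no match, and for Retnla and Pdcd1lg2. Retnla had TTCACAAGAA 145 bases before its start, and Pdcd1lg2 had TTCCTCAGAA 82 bases before its start, both with the STAT6 spacing. Of all 32851 RefSeq promoter windows of this length, 5.85% held TTCNNNNGAA and 7.02% held TTCNNNGAA. Both motifs read the same on either strand, so that 1 search covers both. A match is a description of the letters and says nothing of binding in these cells. Arg1, Clec10a and Ccl24 had no window in the table of promoters.

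Levels are given as CPM, which are reads scaled to a shared library size, and differences as log2 fold changes of KO over WT on the scale log2(CPM + 1), which understates the change of genes near 1 CPM. Depth was 25454862 to 35517269 reads per library, so 1 read was worth 0.0277 to 0.0400 CPM. Ube3a stood at 69.7, 61.2 and 77.0 CPM in KO replicates 1 to 3, against 207, 194 and 178 CPM in WT replicates 1 to 3, and it fell past the threshold (log2 fold change -1.47; limma with Benjamini-Hochberg adjustment, adjusted p = 0.00444). Markers of the labelled cell type were abundant: the 6 macrophage genes Adgre1, Cd68, Csf1r, Itgam, Fcgr1 and Mertk summed to between 3701 and 4183 CPM in KO and between 3434 and 4148 CPM in WT. Summed markers of B cells, stromal cells and dendritic cells reached at most 1.20 CPM in KO and 1.17 CPM in WT. Those of eosinophils, basophils and mast cells summed to between 7.13 and 8.66 CPM in KO and between 7.68 and 9.23 CPM in WT, nearly all from Ccr3. Those of T, NK and innate lymphoid cells summed to between 81.2 and 161 CPM in KO and between 132 and 176 CPM in WT, nearly all from Il7r, while the defining T cell genes Cd3e and Cd3g were not analysed here. Replicate 2 of each genotype stood apart from the other libraries in Xist, the RNA that coats the inactive X chromosome, which had 28 reads in KO replicate 2 and 30161 and 35256 in the other KO libraries. In WT it had 14 reads in replicate 2 and 41519 and 42232 in the other libraries. Results are therefore also given without both of these libraries.

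None of the 7 measured IL-4 type genes was called different between KO and WT macrophages at an adjusted p under 0.05. The threshold was passed by 0.0165% of all genes tested, which is 2 genes. Clec10a alone had an unadjusted p under 0.05, 1 of 7 genes, where 4.13% of all genes tested had one and 1.68% had one with the higher level in KO. In no member did the 3 KO values lie clear of the 3 WT values, which was so for 9.95% of all genes tested. The log2 fold changes on log2(CPM + 1) were positive for 5 genes and negative for 2, from -0.65 for Chil3 to 0.73 for Mrc1. Their median was 0.06, and among all genes tested 50.4% were positive and the median was 0.0015.

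**Figure D1:**
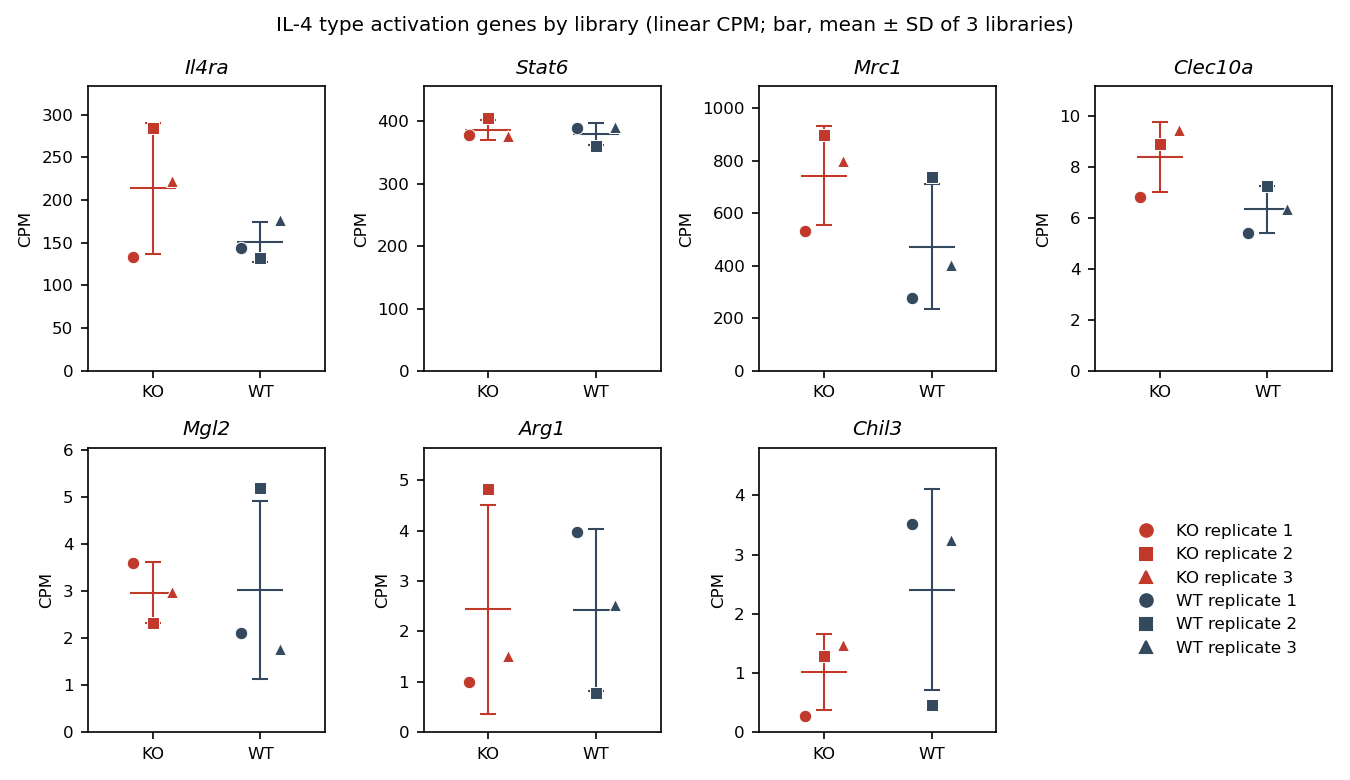
Level of each measured gene in CPM on a linear axis from 0, with KO libraries left and WT libraries right; each point is 1 library, its shape gives the replicate number, and the bar is the mean ± SD of 3 libraries. The KO and WT points overlap in all 7 panels, and Stat6 has the narrowest spread relative to its level, between 360.2 and 406 CPM.

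The receptor and its signal carrier were expressed in every library. Il4ra (ENSMUSG00000030748), the alpha chain that IL-4 and IL-13 receptors share, had 133, 285 and 223 CPM in KO replicates 1 to 3, against 144, 132 and 177 CPM in WT replicates 1 to 3. KO replicates 2 and 3 were above all WT libraries, but KO replicate 1 was below WT replicates 1 and 3, so the genotypes overlapped. The means were 213 ± 76.1 CPM in KO and 151 ± 23.2 CPM in WT (SD, n = 3 each), and the log2 fold change was 0.44 (SE 0.25, 95% interval -0.13 to 1.02; limma with Benjamini-Hochberg adjustment, adjusted p = 0.866). The interval thus reaches from 0.911 to 2.03 times the WT level. Il4ra lies on chromosome 7 at 125552120 to 125579474 on the plus strand, 66.2 Mb from Ube3a on the same chromosome. An antisense gene, Gm44876, shares 8.44% of the 50-base stretches of the Il4ra transcripts. No source used here says whether reads were counted by strand.

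Stat6 (ENSMUSG00000002147), the transcription factor that the receptor activates, was the steadiest of the 7 genes. It had 378, 406 and 376 CPM in KO replicates 1 to 3, against 390.0, 360.2 and 391 CPM in WT replicates 1 to 3. The highest and the lowest library of each genotype differed by 1.08-fold. The means were 387 ± 16.5 CPM in KO and 380.3 ± 17.4 CPM in WT (SD, n = 3 each). With a log2 fold change of 0.02 (SE 0.066; limma adjusted p = 0.944), the 95% interval of -0.13 to 0.18 kept the KO level between 0.914 and 1.13 times the WT level on this scale. Stat6 lies on chromosome 10 at 127642986 to 127660957 on the plus strand and overlaps Nab2 on the other strand by 40 bp. These are transcript levels, and STAT6 is switched on by phosphorylation, which RNA sequencing does not measure.

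The surface lectins had the higher mean in KO in the 2 most abundant cases. Mrc1 (ENSMUSG00000026712), the mannose receptor CD206, which takes up mannose-bearing glycoproteins, had 531, 897 and 800.0 CPM in KO replicates 1 to 3, against 277, 738 and 404 CPM in WT replicates 1 to 3. KO exceeded WT in 8 of the 9 pairings of a KO with a WT library, and the exception was KO replicate 1 against WT replicate 2. The means were 743 ± 189.6 CPM in KO and 473 ± 238 CPM in WT (SD, n = 3 each), a log2 fold change of 0.73 (SE 0.34, 95% interval -0.05 to 1.52), and Mrc1 did not pass (limma with Benjamini-Hochberg adjustment, adjusted p = 0.866). The interval reaches up to 2.86 times the WT level, so that a large difference could not be resolved with these libraries. The macrophage marker sum was 4183, 3916 and 3701 CPM in KO replicates 1 to 3 and 3434, 4148 and 3536 CPM in WT replicates 1 to 3. WT replicates 1 and 3 were thus the lowest libraries for this sum, as they were for Mrc1. Adgre1, Cd68, Fcgr1 and Mertk were each lowest in these libraries, but Csf1r and Itgam were not. Csf1r had 1584, 1513 and 1424 CPM in KO replicates 1 to 3 and 1578, 1554 and 1566 CPM in WT replicates 1 to 3. KO replicate 1, however, had the highest marker sum and the lowest Mrc1 level of the KO libraries. The part of these markers in the Mrc1 values was not tested. In bulk RNA, fewer cells of a kind and less RNA per cell cannot be told apart. Mrc1 lies on chromosome 2 at 14229392 to 14332057 on the plus strand.

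Clec10a (ENSMUSG00000000318), the galactose-type lectin MGL1, was the member closest to a difference by unadjusted p. It had 6.84, 8.90 and 9.43 CPM in KO replicates 1 to 3, against 5.41, 7.25 and 6.35 CPM in WT replicates 1 to 3, from 169 to 306 reads per library. KO replicate 1 was below WT replicate 2, and the other 8 of 9 pairings had KO higher. The means were 8.39 ± 1.37 CPM in KO and 6.34 ± 0.921 CPM in WT (SD, n = 3 each). The log2 fold change was 0.35 (SE 0.14, 95% interval 0.02 to 0.69; limma unadjusted p = 0.0401, adjusted p = 0.866). In the authors' deposited table, Clec10a had a log2 fold change of 0.42 with an unadjusted p of 0.0290. Clec10a lies on chromosome 11 at 70156197 to 70170834 on the plus strand.

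Mgl2 (ENSMUSG00000040950), the paralogue of Clec10a whose gene lies 18.6 kb away at 70130329 to 70137550 on the same strand, had another library pattern. It had 3.60, 2.31 and 2.99 CPM in KO replicates 1 to 3, against 2.11, 5.2 and 1.77 CPM in WT replicates 1 to 3. WT replicate 2 was the highest and WT replicate 3 the lowest of all libraries, so that all KO values lay within the WT range. The log2 fold change was 0.06 (SE 0.29, 95% interval -0.61 to 0.74; limma adjusted p = 0.965), while the means were 2.97 ± 0.643 CPM in KO and 3.03 ± 1.89 CPM in WT (SD, n = 3 each), which is the opposite direction. Clec10a and Mgl2 share 270 stretches of 50 bases, 13.1% of the stretches of Mgl2 being shared with some other gene and 9.02% of those of Clec10a, so reads in these stretches are uncertain.

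The enzyme and the secreted protein were at the floor of the tested range. Arg1 (ENSMUSG00000019987), arginase 1, which splits arginine into ornithine and urea, had 1.0, 4.82 and 1.51 CPM in KO replicates 1 to 3, against 3.97, 0.778 and 2.52 CPM in WT replicates 1 to 3. These values rest on 25, 150 and 49 reads in KO and on 124, 22 and 91 reads in WT. KO replicate 2 was the highest and WT replicate 2 the lowest library, and the order was turned round in the other libraries, where both WT values exceeded both KO values. The means of 2.44 ± 2.07 CPM in KO and 2.42 ± 1.6 CPM in WT (SD, n = 3 each) were close, and the log2 fold change was -0.03 (SE 0.47, 95% interval -1.11 to 1.05; limma adjusted p = 0.988). Arg1 lies on chromosome 10 at 24915221 to 24927484 on the minus strand.

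Chil3 (ENSMUSG00000040809) encodes Ym1, a secreted chitinase-like protein that neutrophils and their precursors also make. It had 0.280, 1.29 and 1.48 CPM in KO replicates 1 to 3, against 3.52, 0.460 and 3.24 CPM in WT replicates 1 to 3, from 7, 40 and 48 reads in KO and 110, 13 and 117 reads in WT. WT replicates 1 and 3 were above every KO library, and WT replicate 2 was below KO replicates 2 and 3. The means were 1.02 ± 0.644 CPM in KO and 2.41 ± 1.69 CPM in WT (SD, n = 3 each). The log2 fold change was -0.65 (SE 0.45, 95% interval -1.68 to 0.38; limma adjusted p = 0.866). At this low level the value depended on the scale. It was -1.01 with a pseudocount of 0.1 (limma adjusted p = 0.867), and the log2 fold change that the authors deposited was -1.06. The summed neutrophil markers, of which 7 of 9 had a row and 4 were tested, stood at 2.76, 8.51 and 10.5 CPM in KO replicates 1 to 3 and at 15.4, 4.81 and 16.6 CPM in WT replicates 1 to 3, so that KO replicate 1 and WT replicate 2 were the lowest libraries for both. The defining marker Ly6g was not analysed here. The part of these markers in the Chil3 values was not tested. Of the 50-base stretches of Chil3, 26.9% occur in another gene, mainly Chil4 and Gm6522, and reads there are uncertain. Chil3 lies on chromosome 3 at 106147554 to 106167564 on the minus strand.

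**Figure D2:**
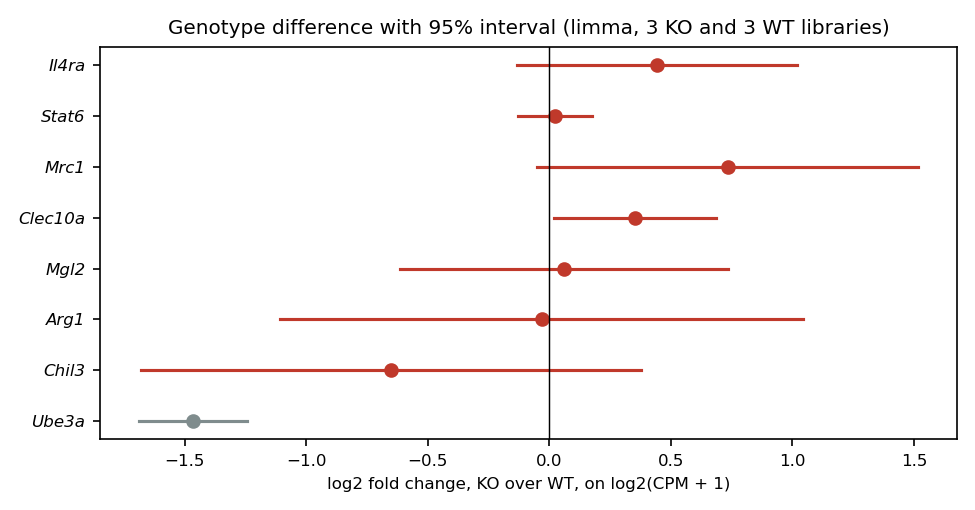
Log2 fold change of KO over WT on log2(CPM + 1) for each measured gene and for Ube3a (grey), with points for the limma estimate and lines for its 95% interval. The intervals of Il4ra, Stat6, Mrc1, Mgl2, Arg1 and Chil3 cross 0, the Clec10a interval runs from 0.02 to 0.69, and Ube3a lies at -1.47.

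The members fell into an abundant and a scarce group. Per kilobase of exon and over all 6 libraries, Mrc1 had 95.4 ± 38.1 CPM, Stat6 87.1 ± 3.53 CPM and Il4ra 30.3 ± 10.2 CPM (SD, n = 6). Clec10a followed with 2.54 ± 0.529 CPM per kilobase, then Mgl2 with 1.43 ± 0.602, Arg1 with 1.09 ± 0.743 and Chil3 with 1.05 ± 0.844. Mrc1 and Stat6 differed by less than the SD of Mrc1, and Mgl2, Arg1 and Chil3 by less than the SD of each. The signal components and the mannose receptor were thus the members with many reads, and Clec10a, Mgl2, Arg1 and Chil3 were measured with few reads.

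Of the 7 genes, 5 had a residual SD above that of at least 97.6% of tested genes. This SD, the spread between libraries of 1 genotype on the log2 scale, was 0.784 for Arg1, a value above that of 99.5% of tested genes, and 0.745 for Chil3, likewise above 99.5%. It was 0.576 for Mrc1, 0.474 for Mgl2 and 0.422 for Il4ra, where the median over all genes tested was 0.116. Clec10a, at 0.202, was above 82.4% of genes, and Stat6, at 0.0637, above 15.1%. Within a genotype, Chil3 differed between its highest and lowest library by 5.29-fold in KO and 7.66-fold in WT, and Arg1 by 4.82-fold in KO and 5.10-fold in WT.

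The members did not share a library order. Clec10a and Mrc1 went together over the 6 libraries (Pearson r = 0.932), as did Stat6 and Arg1 (r = 0.919). Mgl2, by contrast, went against Chil3 (r = -0.857), Stat6 (r = -0.852) and Arg1 (r = -0.819). The pairs named are the strongest among all pairs of the measured members. These values describe 6 libraries that include both genotypes, and the genes share the depth of each library. With the mean profile of the 7 genes, the genes most alike among 10737 searched were Ei24 (r = 0.9955), Plcg1 (r = 0.988) and Wwc2 (r = 0.986). For single members they were Arrb1, Adh5 and Zfp516 for Mrc1, Ndrg1, Copz2 and Copa for Il4ra, Cd33, Zfp775 and Ccdc71 for Clec10a, and Stambpl1, Lyst and Crem for Mgl2. For Arg1 they were Ndst1, Zbtb5 and Kremen1, for Chil3 Kif14, Cdc23 and Cyp20a1, and for Stat6 Dpagt1, Ap1m1 and Bambi. Between 80 and 293 genes per member had an r over 0.9.

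**Figure D3:**
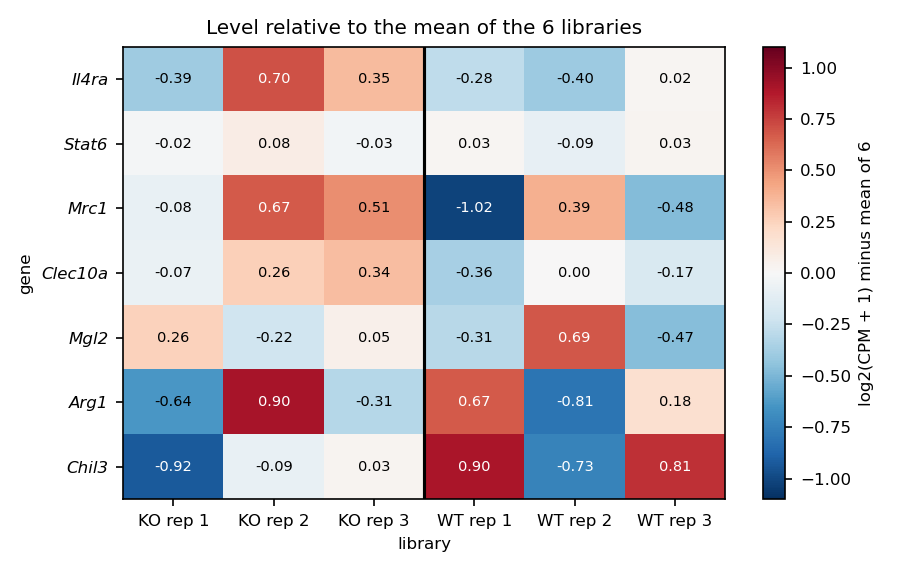
Level of each measured gene in each library as log2(CPM + 1) minus its mean over the 6 libraries, with KO libraries left of the line, WT libraries right of it, red for above and blue for below that mean. Mrc1 is lowest in WT replicate 1 at -1.02, Arg1 is highest in KO replicate 2 at 0.90 and lowest in WT replicate 2 at -0.81, and the Stat6 row is close to 0 throughout.

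The genotype difference of Arg1 and Mgl2 differed between the libraries set apart by Xist and the rest. In a fit that gave replicate 2 and replicates 1 and 3 their own genotype difference, Arg1 had a log2 fold change of 1.71 in replicate 2 and of -0.90 in replicates 1 and 3. The value in replicate 2 minus that in replicates 1 and 3 was 2.61 (SE 0.36, 95% interval 1.79 to 3.43; limma with Benjamini-Hochberg adjustment, adjusted p = 0.0190). Mgl2 had -0.90 in replicate 2 and 0.54 in replicates 1 and 3, a difference of -1.45 (SE 0.27; limma adjusted p = 0.0400). Chil3, with 0.65 in replicate 2 and -1.30 in replicates 1 and 3, and Stat6, with 0.17 in replicate 2 and -0.05 in replicates 1 and 3, also had opposite signs, but their differences did not pass (limma adjusted p = 0.0952 for Chil3 and 0.444 for Stat6). Il4ra had 1.1 in replicate 2 and 0.11 in replicates 1 and 3 (limma adjusted p of the difference 0.219). Mrc1 had 0.28 in replicate 2 and 0.96 in replicates 1 and 3 (0.428), and Clec10a had 0.26 in replicate 2 and 0.40 in replicates 1 and 3 (0.871). Opposite signs were seen in 4 of the 7 members and in 50.9% of all genes tested, a share near the background. The difference was called for 2 of 7 members, where 1.86% of all genes tested were called. Replicate 2 is 1 library per genotype, which the fit takes to vary like the others. The split was also chosen after the values had been seen, so the p-values of this difference are no separate test of the members.

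Without both replicates 2, 24 genes were called and none of them was a member, although 5 of the 7 members had an unadjusted p under 0.05, against 11.4% of all genes tested. Mrc1 and Chil3 then had log2 fold changes of 0.96 and -1.30 with an adjusted p of 0.0980 each, and Arg1 had -0.90 with an adjusted p of 0.112 (limma with Benjamini-Hochberg adjustment). In these 4 libraries the lectins Mrc1, Clec10a and Mgl2 had positive values, and Arg1 and Chil3 negative ones. The libraries left out held the extremes of several members. KO replicate 2 was highest and WT replicate 2 lowest for Arg1, Il4ra and Stat6, and WT replicate 2 was highest for Mgl2. This split was chosen after the values had been seen, so the p-values of this fit are no separate test of the members.

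**Figure D4:**
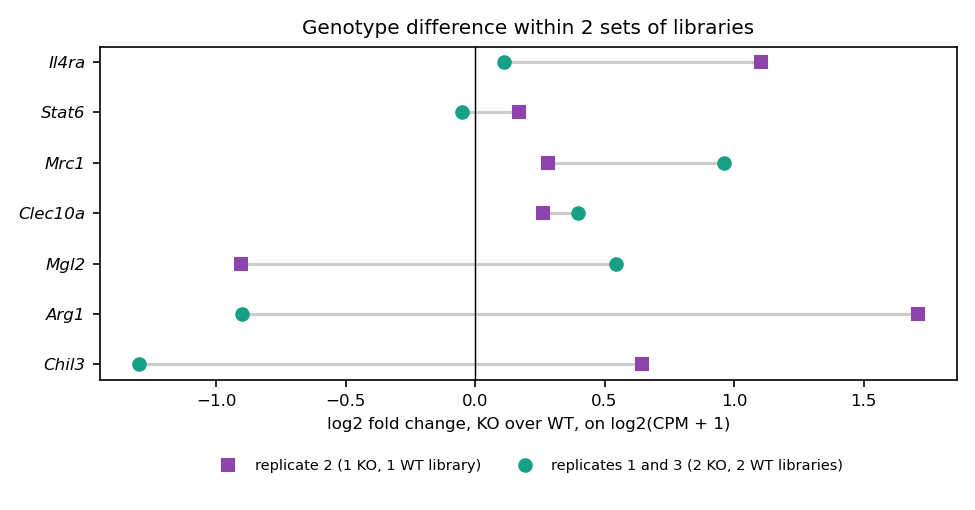
Log2 fold change of KO over WT on log2(CPM + 1) for each measured gene, fitted separately in replicate 2 (purple squares, 1 KO and 1 WT library) and in replicates 1 and 3 (green circles, 2 KO and 2 WT libraries). Grey lines join the 2 values of a gene, and those of Arg1, Mgl2, Chil3 and Stat6 cross 0.

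Other genes of the IL-4 pathway, among them receptor partners, kinases, inhibitors and transcription factors, were close to even. Of 20 genes listed, 17 had a row and 13 were tested, and none was called, with 7 positive, 6 negative and a median log2 fold change of 0.0026. The 4 with the smallest p were the kinases Tyk2 (0.14) and Jak3 (0.25), the transcription factor Myc (-0.13) and the phosphatase Ptpn6 (0.08). Jak3, which works with the common gamma chain of the receptor, had 43.3, 68.7 and 48.0 CPM in KO replicates 1 to 3, against 38.5, 44.5 and 48.9 CPM in WT replicates 1 to 3, so that KO replicate 2 was highest, as for Il4ra. Il4 and Il13 themselves were not analysed here.

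Of 20 further genes that IL-4 induces in macrophages, 17 had a row and 14 were tested. The tested genes gave a median of 0.07, with 8 positive, 6 negative and none called. F13a1, the coagulation factor XIII A subunit, had 81.3, 251 and 154 CPM in KO replicates 1 to 3, against 95.2, 94.0 and 84.7 CPM in WT replicates 1 to 3 (log2 fold change 0.68; limma adjusted p = 0.866). KO replicate 1 was below all WT libraries, and KO replicates 2 and 3 were above all of them. Fn1, fibronectin, had a log2 fold change of 0.46, Cdh1, E-cadherin, one of -0.37, and Ch25h, cholesterol 25-hydroxylase, one of 0.33 (limma adjusted p from 0.866 to 0.872). Genes of classical activation, the state that interferon gamma and bacterial products bring about, had 3 positive and 8 negative values among 11 tested genes, with a median of -0.06 and none called. This list had 16 genes, of which 13 had a row. Nos2 and Il1b did not pass the filter on low values, and Il12b, Il6 and Cxcl9 were not analysed here. The chemokine Cxcl10 had 4.84, 4.59 and 6.38 CPM in KO replicates 1 to 3, against 7.68, 6.40 and 6.93 CPM in WT replicates 1 to 3 (log2 fold change -0.36; limma unadjusted p = 0.0266, adjusted p = 0.866). It was the 1 of 11 tested genes of this list without overlap, a share near the 9.95% among all genes tested. KO replicate 3, at 6.38 CPM, lay only just below WT replicate 2, at 6.40 CPM. The scavenger receptor Marco had -0.26, the prostaglandin synthase Ptgs2 -0.49 and the cytokine Tnf -0.10.

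**Figure D5:**
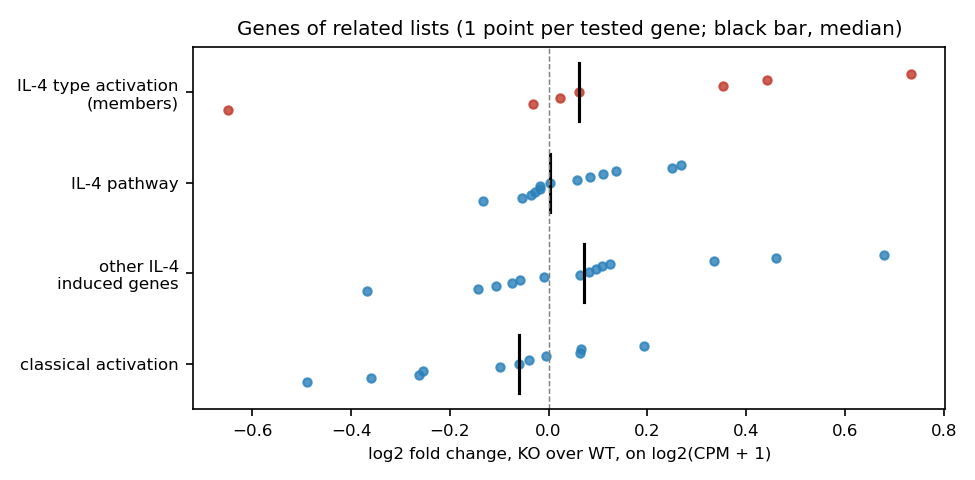
Log2 fold change of KO over WT on log2(CPM + 1) for each tested gene of 4 lists (1 point per gene, black bar for the median, dashed line at 0). The medians are 0.06 for the IL-4 type activation genes, 0.0026 for the IL-4 pathway, 0.07 for other IL-4 induced genes and -0.06 for classical activation, and no point is a called gene.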

How the data were processed

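Polyadenylated RNA was sequenced from 3 KO and 3 WT macrophage libraries, grouped by their titles. The submitters' processing notes name HISAT2 2.1.0, Trimmomatic 0.36, Cufflinks, FastQC 0.11.15 and HTSeq 0.11.0, with no roles. No source used here names the genome build, the annotation or the strand setting. The authors deposited 1 table of log2 CPM values with a log2 fold change and an unadjusted p-value per gene. Its genes have at least 10 reads in all and a read in at least 3 libraries. Deposited p-values written with an exponent, the form of very small values, were not read. Of the 16830 readable p-values the authors deposited, 725 were under 0.05, and they were used for comparison only.

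The decimal marks of the deposited log2 CPM values had been lost. For each value the reading was taken at which 2 to the power of the value, less the offset shared by all libraries, is a whole number of reads. All values came out whole (100% within 1e-06), which gave back reads and CPM on the authors' scaled library sizes. As a check, limma-voom on these reads over all genes gave p-values within a relative gap of 4.42e-09 of the readable deposited ones. The 12118 genes that reached 1 CPM in 3 or more libraries were fitted as log2(CPM + 1) with limma 3.58.1 in R 4.3.3 (eBayes with an intensity trend, genotype as the only term). Calls are two-sided, at p under 0.05 after Benjamini-Hochberg adjustment over all genes tested. Intervals are at the 95% level. The fit and the reading of the values were tested on simulated data.

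Alternatives were other library sizes, no filter, a pseudocount of 0.1, the deposited log2 CPM, limma-voom, the replicate number as a block, each library left out and both replicates 2 left out. The members and lists were chosen with earlier results of these data known. Named were all members, Ube3a, up to 4 genes per list with the smallest p, and the 3 genes most alike to each member by Pearson r. Jak3 and F13a1 are given per library because their values stood out. Positions and exon lengths are those of GENCODE M21 (GRCm38), matched by Ensembl identifier.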

Additional observations from a re-analysis of the deposited data

Results flagged for a closer look

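For 2 members the KO against WT difference itself differed between sets of libraries, namely replicate 2, which has almost no Xist reads, and replicates 1 and 3. The sets were formed after the values had been seen, so the p-values given here are no separate test of the members. For Arg1 the log2 fold change in replicate 2 was 2.61 above that in replicates 1 and 3 (limma with Benjamini-Hochberg adjustment, adjusted p = 0.0190). For Mgl2 it was -1.45 relative to that in replicates 1 and 3 (limma adjusted p = 0.0400). Arg1 had 4.82 CPM in KO replicate 2 and 0.778 CPM in WT replicate 2, and Mgl2 had 2.31 CPM in KO replicate 2 and 5.2 CPM in WT replicate 2. Each set has 1 or 2 libraries per genotype, and whether the replicate number, the Xist level or anything else that sets these libraries apart moves with the values was not tested.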

How the results depend on the processing

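Across 14 alternative fits, no member was called. Mrc1, Clec10a and Il4ra stayed positive and Chil3 negative in each of these fits. The log2 fold change ran from 0.41 to 1.11 for Mrc1, from 0.26 to 0.48 for Clec10a, from 0.11 to 0.75 for Il4ra and from -1.30 to -0.35 for Chil3. Arg1 turned positive without KO replicate 1, KO replicate 3, WT replicate 1 or WT replicate 3, and with 1 library left out it lay between -0.49 and 0.30. Mgl2 turned negative without KO replicate 1, WT replicate 1 or WT replicate 3, with a range of -0.16 to 0.42. Stat6 turned negative without KO replicate 2 or WT replicate 2, with a range of -0.015 to 0.044, and was -0.050 without both replicates 2. The cause was not tested. Ube3a was called in every fit. Over all genes, 2 were called, against 1 with no filter, 1 with limma-voom, 1 to 8 with 1 library left out and 24 without both replicates 2. The 8 were reached without WT replicate 2, where 4 members had an unadjusted limma p under 0.05 and 10.6% of all genes had one.

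Deviations from the group means correlated at -0.216, -0.134 and 0.140 between same-numbered libraries and at 0.398 between KO replicate 1 and WT replicate 2. With so few libraries per genotype, these values cannot decide whether the replicate numbers pair the libraries. Replicate 2 of both genotypes did share the near absence of Xist reads. With the replicate number as a block, 2 genes and no member were called. Mrc1 (log2 fold change 0.73; limma adjusted p = 0.927) and Clec10a (0.35; 0.927) had unadjusted p-values of 0.00211 and 0.0171. In this fit 2 members and 4.08% of all genes tested had an unadjusted limma p under 0.05. Arg1 and Chil3 had as few as 22 and 7 reads in a library, but their spread within genotypes was beyond counting error: chi-square divided by its degrees of freedom was 40.5 for Arg1 and 22.2 for Chil3.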

Other observations

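Of the 14 tested other IL-4 induced genes, F13a1, Fn1, Matk and Cd163 had their highest level in KO replicate 2, and the rest did not. The share of all genes tested with their highest level in that library was not counted, so this is not a trait of the list. In KO replicate 2, F13a1 had 251 CPM, Fn1 3.44 CPM, the kinase gene Matk 3.12 CPM and Cd163, the haemoglobin scavenger receptor, 2.60 CPM. In the other KO libraries Cd163 had 0.760 and 1.14 CPM, and in WT replicates 1 to 3 it had 1.34, 1.20 and 1.03 CPM. Il1rn, which encodes the interleukin 1 receptor antagonist, had 57.5, 27.3 and 26.9 CPM in KO replicates 1 to 3 and 26.4, 60.3 and 21 CPM in WT replicates 1 to 3. It was high in KO replicate 1 and WT replicate 2, the libraries in which Chil3 was lowest. Cd163, Matk and Il1rn were singled out after their values had been seen.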
